A study of Homo sapiens with 12 samples.

Results

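The phagocyte NADPH oxidase was examined through 5 of its subunit genes, CYBB, CYBA, NCF1, NCF4 and RAC2, which were taken by gene symbol from the 20003 genes measured, and all 5 were found. NB4 cells are from an acute promyelocytic leukemia and carry the fusion PML-RARα. Kasumi-1 cells are from an acute myeloid leukemia with the t(8;21) translocation, which makes the fusion AML1-ETO. The 4 groups were NB4 control, NB4 OGP46, Kasumi-1 control and Kasumi-1 OGP46, with 3 samples each. OGP46, a compound studied as an inducer of differentiation in leukemia cells, was given at 1 μM, and the control cells received the vehicle DMSO. The sample labels and the methods give 48 h of incubation, whereas a figure legend of the study gives a longer time. Each line is a single cell line, so a difference between the 2 lines cannot be told apart from one between the leukemia types. The values are FPKM, sequenced fragments scaled to the length of the exons and to the mapped total of the sample. As they are per length, they can be compared between genes.

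The NADPH oxidase of phagocytes, also called NOX2, moves electrons from NADPH across a membrane onto oxygen and so makes superoxide, which neutrophils and monocytes use against microbes. Its membrane part is a pair of gp91phox, encoded by CYBB, and p22phox, encoded by CYBA. In resting cells p47phox (NCF1) and p40phox (NCF4) wait with their partners in the cytosol, and on activation they join the membrane pair together with the small GTPase Rac, of which RAC2 is the form of blood cells. Immature myeloid cells hold little of the enzyme, and the genes of several subunits are turned on as granulocytes and monocytes mature. PU.1, encoded by SPI1, is an ETS factor known to drive CYBB and NCF1 in myeloid cells.

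The genes lie on 4 chromosomes of GRCh38, as placed by GENCODE. CYBB is at chrX:37780011-37813461 on the plus strand, CYBA at chr16:88643283-88651152 on the minus strand and NCF1 at chr7:74773962-74789315 on the plus strand. NCF4 at chr22:36860988-36878015 on the plus strand and RAC2 at chr22:37225261-37244448 on the minus strand share a chromosome. All 5 are protein-coding genes. The NCF1 value is uncertain, because 84.5% of the 50-base windows of its longest coding transcript also occur in another annotated gene, mainly in its copies NCF1B (68.9%) and NCF1C (68.7%), and neither copy has a row among the genes measured. For CYBB, NCF4 and RAC2 that share was 0%, and for CYBA it was 0.579%. NCF4 shares 27 exon bases with its antisense gene NCF4-AS1, and whether the counting used strand is not given in the sources used here.

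The promoters are shown because, of the 5 genes, CYBB and NCF1 differed most between the cell lines, whereas CYBA differed by less than the fold minimum of a call. The windows run from 250 bases before to 50 bases after the RefSeq start on GRCh38.p14, read 5′ to 3′ on the strand of the gene, and 3 of the 5 genes matched (not NCF4 and RAC2). Capitals mark the PU.1 core GAGGAA, searched on both strands, which reads TTCCTC when it lies on the other strand. The CYBB window is chrX:37779809-37780108 on the plus strand, that of NCF1 is chr7:74773761-74774060 on the plus strand and that of CYBA is chr16:88651004-88651303 on the minus strand.
CYBB: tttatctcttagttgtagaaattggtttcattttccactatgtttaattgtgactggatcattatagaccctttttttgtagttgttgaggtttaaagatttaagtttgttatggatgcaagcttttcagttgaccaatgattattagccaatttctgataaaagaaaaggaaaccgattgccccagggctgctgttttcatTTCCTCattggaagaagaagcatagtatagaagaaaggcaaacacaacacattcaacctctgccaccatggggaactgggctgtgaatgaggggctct
NCF1: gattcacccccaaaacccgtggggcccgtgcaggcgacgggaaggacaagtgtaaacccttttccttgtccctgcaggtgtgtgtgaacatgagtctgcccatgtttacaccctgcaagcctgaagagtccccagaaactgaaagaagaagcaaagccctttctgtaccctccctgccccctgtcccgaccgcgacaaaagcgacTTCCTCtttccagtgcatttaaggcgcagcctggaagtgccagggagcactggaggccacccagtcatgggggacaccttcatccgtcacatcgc
CYBA: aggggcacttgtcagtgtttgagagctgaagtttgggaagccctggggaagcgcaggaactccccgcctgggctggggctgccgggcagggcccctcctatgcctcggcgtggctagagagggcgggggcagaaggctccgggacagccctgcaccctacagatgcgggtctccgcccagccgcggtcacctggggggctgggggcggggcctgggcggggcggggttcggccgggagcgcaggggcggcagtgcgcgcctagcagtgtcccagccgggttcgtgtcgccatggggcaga
CYBB and NCF1 each held 1 PU.1 core, whose first base lies at position -48 in CYBB and -45 in NCF1, counted back from the start. CYBA held 0. Over all 35116 promoters of this length, 27.9% held the core. An IRF motif, GAAANNGAA on either strand, occurred at -224 and -86 in CYBB and at -116 in NCF1, but not in CYBA, against 8.11% of all promoters, and none of these overlapped the PU.1 core. Neither the C/EBP motif TTGCNNAA (10.5% of all promoters) nor the antioxidant response element TGACNNNGC (13.3%), on either strand, was found in the 3 windows. These matches describe letters only.

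The cell lines were checked against their markers before the oxidase genes were compared. CD33, MPO, SPI1, CSF3R and LYZ, the 5 genes listed for myeloid cells, all reached 1 FPKM in both lines. The 5 Kasumi-1 genes RUNX1T1, TRH, POU4F1, CD34 and KIT summed to between 237 and 299 FPKM in Kasumi-1 and to between 0.563 and 3.60 FPKM in NB4. In the list for NB4, STAB1 was higher in NB4 control than in Kasumi-1 control by 4.47 on the log2 scale, whereas HGF, PRTN3 and ELANE were lower, by -0.61, -3.55 and -8.91, so 3 of these 4 genes went against the label of the list. Erythroid markers summed to at most 0.184 FPKM in any sample. Of the T cell markers CD3D alone was at 13.5 to 34.6 FPKM in NB4, with CD3E at or near 0 and CD2 at 0, and of the epithelial markers EPCAM was at 40.3 to 56.0 FPKM in Kasumi-1. The B cell markers summed to at most 3.02 FPKM.

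A pair of control samples held low values of genes that are high in the other cell line. These are called traces of that line here, and their source was not tested. In NB4 control sample 3, the median of 27 genes of Kasumi-1 was 1.23% of the level in Kasumi-1, and all 27 were above 0. In Kasumi-1 control sample 2, the median of 17 genes of NB4 was 1.05% of the level in NB4, and 15 were above 0. The median was at most 0.200% in the other 10 samples. This share of the mean CYBB level in NB4 is 0.540 FPKM, which touches the low CYBB value of Kasumi-1. The sums of all FPKM were between 248207 and 310262 per sample, and all 3 NB4 OGP46 samples (263341 to 291523) were above the 3 NB4 controls (248207 to 256268).

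To see how the enzyme stood in the cells without OGP46, the control samples of both lines were compared. CYBB and NCF1 were far higher in NB4, NCF4 was lower in NB4, and CYBA and RAC2 differed by less than 1.49-fold, the minimum that a call required. A gene was called where limma gave a Benjamini-Hochberg adjusted p below 0.05 and its log2 fold change reached 0.58 in either direction. Of all 12302 genes tested, 22.7% were called higher in NB4 and 29.7% lower. The counts of 2 higher and 1 lower among the 5 subunits are to be read against these shares. The split of all called genes was 2790 higher and 3659 lower, against 3330 and 3162 under median centring and 3592 and 2989 under TPM scaling.

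CYBB, the catalytic membrane subunit, measured 46.7, 35.0 and 38.5 FPKM in the NB4 controls and 0.242, 0.982 and 0.283 FPKM in the Kasumi-1 controls. The lowest NB4 sample was far above the highest Kasumi-1 sample, and the highest Kasumi-1 value was that of sample 2, the one with traces of NB4. The means were 40.1 ± 6.03 and 0.502 ± 0.416 FPKM (SD, n = 3), a 79.8-fold ratio. The log2 difference of (FPKM + 0.1) was 6.26 (SE 0.38, adjusted p = 8.2e-07), and 99.7% of genes had a lower one. Without Kasumi-1 control sample 2 it was 6.78 and the ratio of the means 153, and with a pseudocount of 1 the difference was 4.80, so the size of the ratio is uncertain while its direction held.

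NCF1, the organizer of the cytosolic complex, followed the same direction at a lower level. It measured 5.11, 4.99 and 4.42 FPKM in the NB4 controls and 0.441, 0.870 and 0.809 FPKM in the Kasumi-1 controls. The groups did not overlap, and the ratio of the means was 6.85 (log2 difference 2.66, SE 0.21, adjusted p = 5.0e-06). NCF4, whose product p40phox binds a phosphoinositide of the phagosome membrane, went the other way. Its values were 11.7, 9.53 and 11.6 FPKM in NB4 and 18.98, 23.5 and 16.4 FPKM in Kasumi-1, again without overlap. The log2 difference was -0.83 (SE 0.14, adjusted p = 5.2e-04).

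CYBA, which stabilizes gp91phox in the membrane, was abundant in both lines. It measured 61.1, 74.1 and 57.0 FPKM in the NB4 controls and 76.3, 85.1 and 75.3 FPKM in the Kasumi-1 controls. All NB4 values were below all Kasumi-1 values, by -0.31 on the log2 scale (SE 0.10, adjusted p = 0.0238), which is under the fold minimum. Under median centring this was -0.17 (adjusted p = 0.164). RAC2 measured 65.4, 68.2 and 65.8 FPKM in NB4 and 55.1, 66.4 and 56.8 FPKM in Kasumi-1, and these ranges overlapped (0.17, 95% interval -0.02 to 0.35, adjusted p = 0.0947). Under median centring the RAC2 difference was 0.30 (adjusted p = 0.00354), and without Kasumi-1 control sample 2 it was 0.25 (adjusted p = 0.00932), both still under the fold minimum.

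Other genes that serve the enzyme also differed between the lines. The ubiquitous RAC1 was higher in NB4, at a mean of 190 against 90.4 FPKM. HVCN1, the proton channel that carries the compensating charge, was 7.85-fold higher in NB4. CYBC1, the chaperone of the membrane pair, was 1.78-fold higher in Kasumi-1. All 3 differences were called (adjusted p = 1.9e-06, 6.7e-08 and 8.4e-06). Of all genes, 22.7% were called higher in NB4 control and 29.7% lower, so such a call was common.

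**Figure D1:**
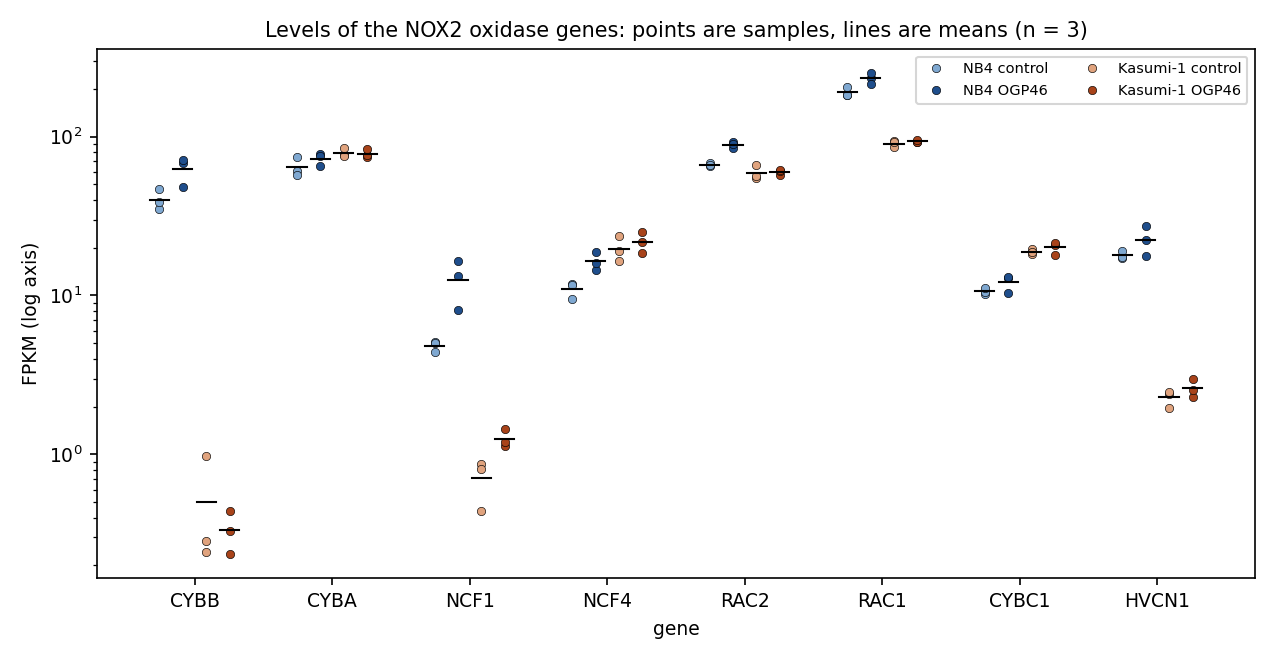
FPKM (log axis) of 8 NOX2 oxidase genes in the 4 groups, with 1 point per sample and a line at the mean of 3. CYBB, NCF1 and HVCN1 are lower in both Kasumi-1 groups, whereas CYBA and RAC2 lie above 50 FPKM in all 4 groups.

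In the order of levels within NB4 control, RAC1 came first, followed by RAC2 and CYBA, whose sample ranges overlapped. CYBB at 40.1, HVCN1 at 17.9, and NCF4 and CYBC1 at 11.0 and 10.6 FPKM came next, the last pair with overlapping ranges. NCF1 at 4.84 FPKM closed the list. In Kasumi-1 control the order was RAC1, CYBA, RAC2, then NCF4 and CYBC1 with overlapping ranges, then HVCN1 at 2.28 FPKM, and last NCF1 and CYBB, whose ranges overlapped. Among all 20003 genes, CYBB held rank 1072 in NB4 control and rank 10435 in Kasumi-1 control.

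With OGP46 in NB4, the range of CYBB, at a mean of 62.6 FPKM, overlapped that of CYBA at 72.6 FPKM, and the range of NCF1 at 12.6 FPKM overlapped those of NCF4 and CYBC1. CYBB moved from rank 1072 to rank 723 and NCF1 from rank 6104 to rank 3645. In Kasumi-1 with OGP46 the ranges of NCF1 and CYBB did not overlap, at means of 1.26 and 0.335 FPKM. Their overlap in the controls came from the CYBB value of sample 2, 0.982 FPKM, the sample with traces of NB4. CYBB in control samples 1 and 3, at 0.242 and 0.283 FPKM, was already below every NCF1 control value.

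To test whether OGP46 changed the subunits in NB4, the 3 OGP46 samples were compared with the 3 controls. NCF1 rose, and CYBB, NCF4 and RAC2 were above every control sample without passing both thresholds of the test. When same-numbered samples were paired, as a replicate block, CYBB and NCF4 passed as well. Of the 5 genes, 1 was called higher, against 1.45% of the 11750 genes tested, and 3 with the replicate block, against 5.06%. All genes called with the block were 595 higher and 135 lower, and 188 higher and 203 lower with the block and median centring, where NCF1 was the one of the 5 called. For 4 of the 5, all OGP46 samples were above all controls, which held for 32.7% of all genes. The median log2 fold change of the 5 was 0.58 and that of all genes 0.18.

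NCF1 measured 5.11, 4.99 and 4.42 FPKM in the NB4 controls and 16.5, 13.2 and 8.06 FPKM with OGP46. Every OGP46 sample was above every control, and sample 3 was the lowest of its group in both. The means were 4.84 ± 0.371 and 12.6 ± 4.24 FPKM (SD, n = 3), a 2.60-fold rise. The log2 fold change was 1.30 (SE 0.23, adjusted p = 0.0364, with the replicate block 1.2e-04), and 99.5% of genes had a lower one. The call without the block was lost when any one sample other than OGP46 sample 2 was left out, with a log2 fold change of 1.08 to 1.59 and an adjusted p of 0.0668 to 0.157. It was also lost under median centring of the samples (1.08, adjusted p = 0.169), where with the block it held (adjusted p = 0.0117).

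CYBB measured 46.7, 35.0 and 38.5 FPKM in the NB4 controls and 68.3, 47.9 and 71.7 FPKM in the NB4 samples given OGP46. The groups did not overlap, although OGP46 sample 2 at 47.9 was just above control sample 1 at 46.7 FPKM. The ratio of the means was 1.56, and the log2 fold change was 0.63 (SE 0.17, 95% interval 0.25 to 1.01, adjusted p = 0.0726). With the replicate block the adjusted p was 0.00118, and CYBB was called, but with the block and median centring it was 0.41, under the fold minimum (adjusted p = 0.0130). Without OGP46 sample 2 it was also called (0.81, adjusted p = 0.0270).

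NCF4 was at 11.7, 9.53 and 11.6 FPKM in control cells and at 18.8, 14.5 and 16.1 FPKM in cells given OGP46. In both groups sample 2 was the lowest, and no OGP46 sample fell within the control range. Its log2 fold change of 0.58 (SE 0.12) had an adjusted p of 0.0521, and of 0.00125 with the replicate block, where it was called. With the block and median centring it was 0.36 (adjusted p = 0.0323), under the fold minimum. Without OGP46 sample 2 it was called as well (0.67, adjusted p = 0.0329).

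RAC2 showed the tightest values, 65.4, 68.2 and 65.8 FPKM in control cells and 85.1, 92.3 and 90.1 FPKM in cells given OGP46. The gap between the groups was wide against their spread, with means of 66.5 ± 1.495 and 89.1 ± 3.70 FPKM (SD, n = 3). Its log2 fold change of 0.42 (SE 0.069, adjusted p = 0.0335, with the replicate block 0.00314) passed the p threshold but not the fold minimum. CYBA, at 61.1, 74.1 and 57.0 FPKM in control cells and 65.4, 77.2 and 75.1 FPKM in cells given OGP46, overlapped between the groups. Its log2 fold change of 0.18 (95% interval -0.08 to 0.44, adjusted p = 0.300) was close to the median of all genes, and under median centring it was -0.04.

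**Figure D2:**
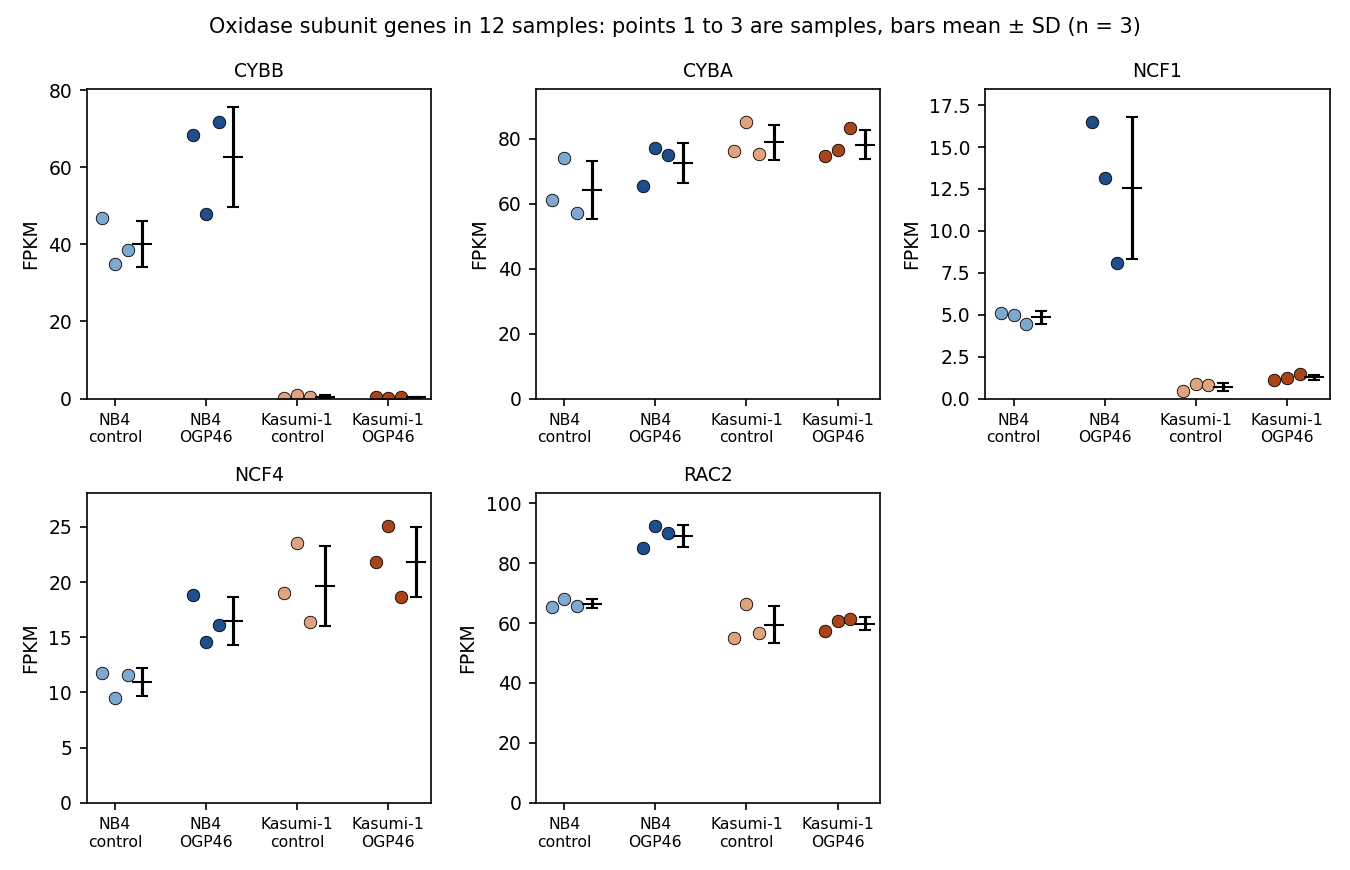
FPKM of the 5 subunit genes in each sample (points, samples 1 to 3 from left to right) with mean and SD (n = 3), on axes that start at 0. In NB4 the OGP46 samples of CYBB, NCF1, NCF4 and RAC2 lie above all controls, and those of CYBA overlap them.

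In Kasumi-1 none of the 5 genes was called by limma without the block. NCF1 was the one subunit whose OGP46 samples all lay above the controls, and it was called with the replicate block. The test called 2 of 11835 genes higher (0.0169%), and 1852 genes had an unadjusted p below 0.05. With the replicate block it called 0.27% higher, and 1 of the 5. All OGP46 samples were above all controls for 17.4% of all genes and for 1 of the 5.

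NCF1 measured 0.441, 0.870 and 0.809 FPKM in the Kasumi-1 controls and 1.13, 1.20 and 1.44 FPKM with OGP46. The values were low, below those of every NB4 sample, and control sample 1 was the lowest. The log2 fold change was 0.79 (SE 0.22, adjusted p = 0.147, with the replicate block 0.0315), and the ratio of the means was 1.78. It depended on the pseudocount, at 0.41 with a pseudocount of 1 and 0.87 with 0.01. Without control sample 1 it was 0.52.

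CYBB stayed under 1 FPKM in every Kasumi-1 sample, at 0.242, 0.982 and 0.283 FPKM in control cells and 0.440, 0.237 and 0.330 FPKM in cells given OGP46. Control sample 2 stood apart, and the other samples overlapped. A log2 fold change of -0.29 (95% interval -1.18 to 0.61, adjusted p = 0.760) became 0.24 without that sample. The part of the NB4 traces in its value was not tested.

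CYBA was at 76.3, 85.1 and 75.3 FPKM in the Kasumi-1 controls and at 74.8, 76.5 and 83.3 FPKM with OGP46, with a log2 fold change of -0.01 (95% interval -0.17 to 0.14). RAC2 was at 55.1, 66.4 and 56.8 FPKM and then at 57.4, 60.8 and 61.2 FPKM (0.01, interval -0.16 to 0.18). For both genes the ranges overlapped, and the sign of the change turned with the scaling or with 1 sample left out. NCF4 was at 18.98, 23.5 and 16.4 FPKM in control cells and at 21.8, 25.0 and 18.6 FPKM in cells given OGP46. Each OGP46 sample of NCF4 was above the control of the same number, but the groups overlapped (0.16, interval -0.15 to 0.46, adjusted p = 0.600).

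**Figure D3:**
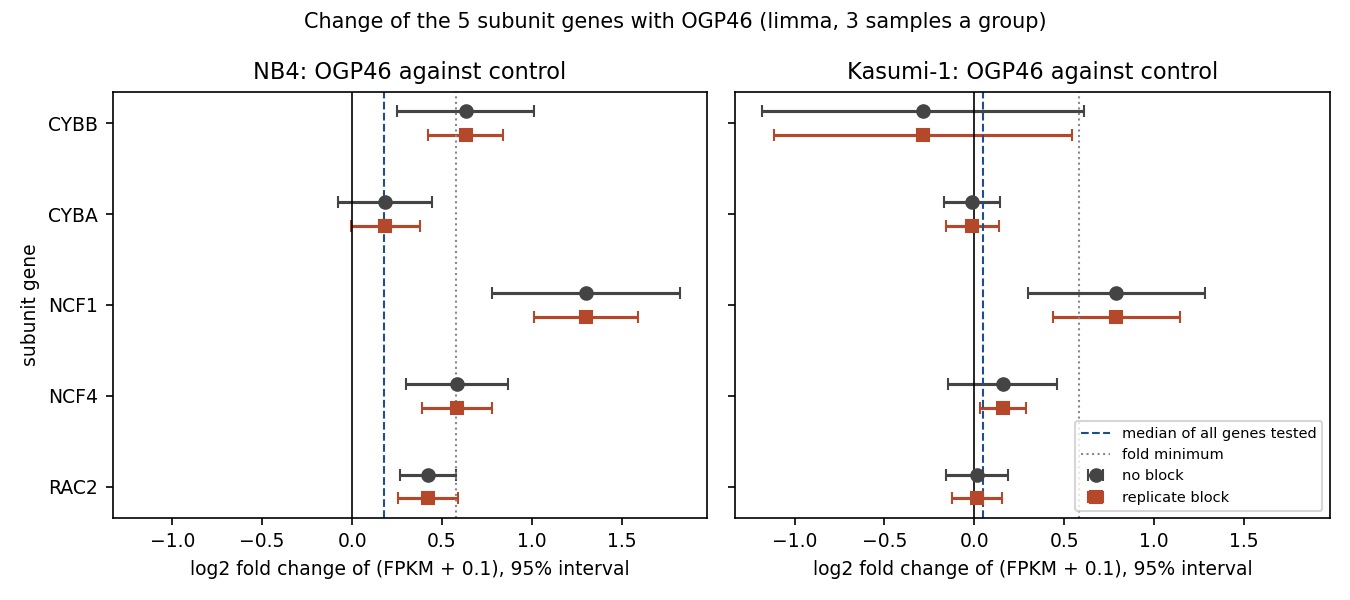
Log2 fold change of (FPKM + 0.1) of the 5 subunit genes with OGP46 in each line, with 95% intervals of limma without a block (circles) and with the replicate block (squares). The dashed line is the median of all genes tested, 0.18 in NB4 and 0.05 in Kasumi-1, and the dotted line is the fold minimum of 0.58.

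Whether the subunits responded differently in the 2 lines was tested as the interaction of line and treatment. All 5 log2 fold changes were larger in NB4, but none of the differences passed the limma test, in which 0 of 12309 genes passed (0%) and 1348 had an unadjusted p below 0.05. The difference was 0.92 for CYBB (95% interval -0.16 to 1.99), 0.20 for CYBA (-0.11 to 0.50) and 0.51 for NCF1 (-0.26 to 1.28). For NCF4 it was 0.43 (-0.02 to 0.88), and for RAC2 it was 0.41 (0.19 to 0.63), beside a median of 0.12 over all genes. With 1 sample left out, the CYBB difference was between 0.39 and 1.22. It was lowest without Kasumi-1 control sample 2, which held traces of NB4. With the replicate block, 1.81% of all genes passed with a larger change in NB4, and RAC2 was the one of the 5 among them (adjusted p = 0.04997). The adjusted p of NCF4 was then 0.0527. With the block and median centring RAC2 did not pass (0.26, adjusted p = 0.0756).

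With OGP46 in NB4, RAC1 (0.30, adjusted p = 0.0834), HVCN1 (0.30, adjusted p = 0.207) and CYBC1 (0.19, adjusted p = 0.265) were not called, with or without the replicate block. In Kasumi-1 none of these 3 was called by limma either, with RAC1 at 0.05, HVCN1 at 0.18 and CYBC1 at 0.08 on the log2 scale.

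The 28 genes that prime, activate or assemble the oxidase included 26 that were tested in NB4. Of these, 3 were called higher, against 1.45% of all genes, and none was called lower. The median log2 fold change of the list was 0.33, beside 0.18 for all genes. PREX1, an exchange factor that loads Rac with GTP, was at 11.6, 10.005 and 11.0 FPKM without and 17.6, 16.8 and 15.7 FPKM with OGP46 (log2 fold change 0.62, adjusted p = 0.0299). PAK1, a kinase activated by Rac, went from a mean of 6.12 to 9.67 FPKM (0.64, adjusted p = 0.0350). PRKCA, a protein kinase C form of the family that phosphorylates p47phox, went from 3.08 to 4.89 FPKM (0.65, adjusted p = 0.0335). In each of these 3 genes the groups did not overlap. The count was also 3 with the replicate block, but it was 5 without OGP46 sample 2 and 0 when any one of the other NB4 samples was left out, control sample 3 with its traces of Kasumi-1 included. Without the block, it was also 0 under TPM scaling, median centring or quantile normalization.

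In Kasumi-1, 25 genes of that list were tested and none was called by limma, with or without the block. PREX1 was at a mean of 2.67 FPKM in control cells and 2.79 FPKM in cells given OGP46. The largest change of the list was that of PLA2G4A, a phospholipase that releases arachidonic acid, at 0.38 (adjusted p = 0.117). In NB4 PLA2G4A went the other way, at -0.35 (adjusted p = 0.261). In the interaction test with the replicate block, PREX1, PAK1, CORO1A and ITGB2 of this list passed, each with the larger change in NB4, that is 4 of 25 tested against 1.81% of all genes. CORO1A encodes an actin-binding protein that binds p40phox, and ITGB2 encodes the β2 integrin chain of phagocytes. Without the block none passed. PLA2G4A was the 1 gene of the list whose difference was negative, at -0.73 (adjusted p = 0.223, with the replicate block 0.0884).

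Among 11 transcription factors known to bind oxidase gene promoters, CEBPB was called in NB4, 1 of 11 against 1.45% of all genes, with a median log2 fold change of 0.27 over the list. It measured 12.3, 9.33 and 10.9 FPKM in control cells and 19.3, 20.3 and 17.9 FPKM in cells given OGP46, without overlap (log2 fold change 0.82, SE 0.11, adjusted p = 0.0289). It was called again without OGP46 sample 2, and the list had none called when any one of the other samples was left out. Nor was CEBPB called without the block under TPM scaling, median centring or quantile normalization. SPI1 was at 31.6, 29.9 and 31.6 FPKM and then at 39.7, 34.4 and 38.6 FPKM (0.27, adjusted p = 0.0890). In the controls SPI1 was alike in the 2 lines at means of 31.0 and 30.7 FPKM (difference 0.02, adjusted p = 0.830). IRF8, which is known to act with PU.1 on CYBB, was at 22.4 FPKM in NB4 control and 0.897 FPKM in Kasumi-1 control (4.70, adjusted p = 5.1e-06), and CEBPA was at 78.6 and 8.35 FPKM. GFI1, a repressor of myeloid genes, was lower in NB4 control by -1.77 on the log2 scale. HOXA9 was also called lower there (-1.24), and IRF1 was called higher (0.62). Of the 11 factors, 3 were called higher in NB4 control and 2 lower, against 22.7% and 29.7% of all genes. With OGP46, IRF8 in NB4 was at 28.0 FPKM, and the groups overlapped (0.31, adjusted p = 0.176).

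The other NADPH oxidases, NOX1, NOX3, NOX4, NOX5, DUOX1 and DUOX2, and their partners DUOXA1, DUOXA2, NOXA1 and NOXO1, summed to at most 0.330 FPKM in any sample. NOXA1 was the one of these that could be tested, in Kasumi-1, and was not called (0.84). Thus CYBB was the one NADPH oxidase catalytic gene above 0.1 FPKM in these cells.

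The enzymes downstream of superoxide were not called in either line. MPO, the myeloperoxidase of primary granules that uses hydrogen peroxide, was at a mean of 2896 FPKM in NB4 control and 2095 FPKM with OGP46 (log2 fold change -0.49, adjusted p = 0.147). With the replicate block it passed the p threshold in NB4 (adjusted p = 0.00146) but not the fold minimum. In Kasumi-1 MPO was at 5024 and 4422 FPKM (-0.18, adjusted p = 0.422). SOD1, SOD2 and CAT had log2 fold changes between -0.14 and 0.14 in both lines, and SOD3 was listed at 0 in every sample.

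**Figure D4:**
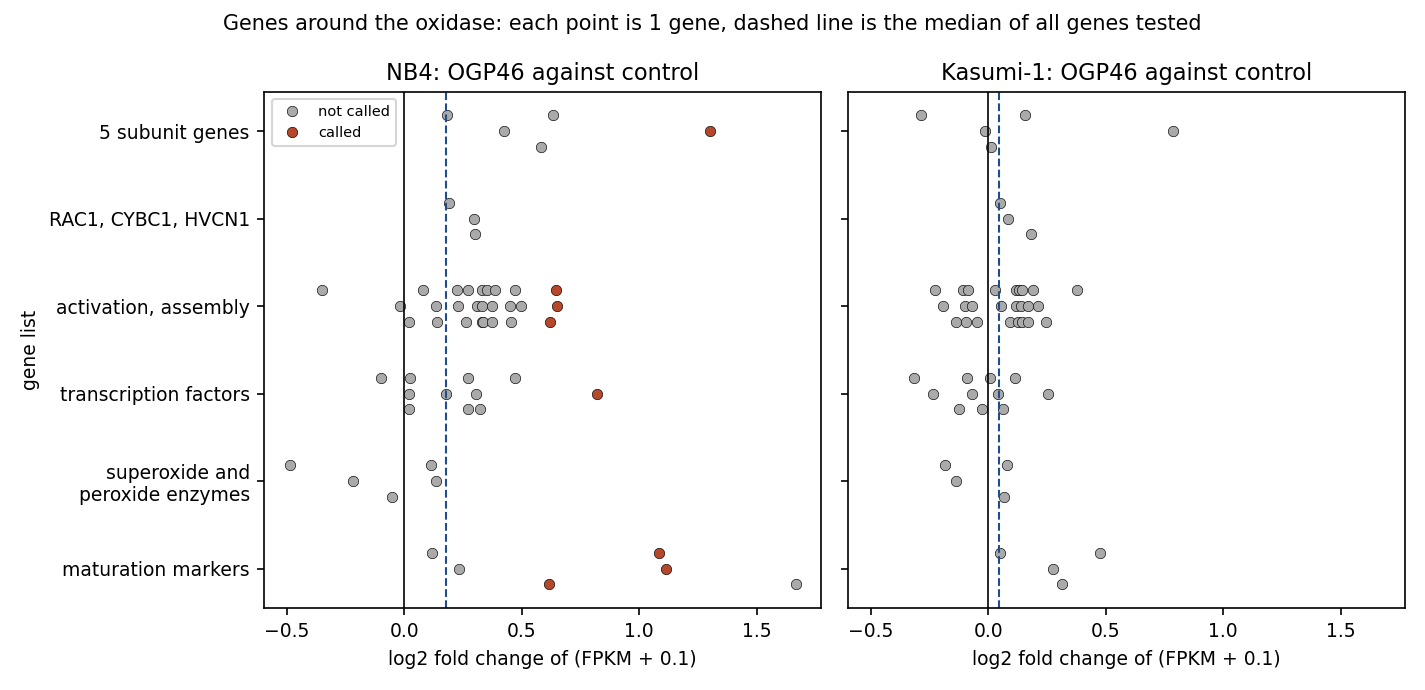
Log2 fold change of (FPKM + 0.1) with OGP46 for each tested gene of 6 gene lists, with called genes in red and the median of all genes tested as a dashed line. In NB4 NCF1, PREX1, PAK1, PRKCA, CEBPB and 3 maturation markers are called, and in Kasumi-1 none of these lists has a called gene.

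Some markers of maturing granulocytes and monocytes were also called in NB4. Of 8 listed, 6 were tested and 3 were called higher, against 1.45% of all genes, namely ITGAM (1.08, adjusted p = 0.0233) and ITGAX (1.11, adjusted p = 0.0335), which encode α chains of the β2 integrins, and the lysosomal CD68 (0.62, adjusted p = 0.0399). Under TPM scaling, median centring or quantile normalization no gene was called in NB4 without the block, these 3 included. CD14 was called with the replicate block. MNDA (0.12, adjusted p = 0.485) and FCGR1A (0.23, adjusted p = 0.588) were not called, and their groups overlapped. The list summed to 88.0 to 92.1 FPKM in the NB4 controls and 99.2 to 123 FPKM with OGP46, of which MNDA made up the most. LTF, a marker of secondary granules, was at 0 in all NB4 samples, and FPR1 was at most 0.0666 FPKM. In Kasumi-1 the list summed to 18.2 to 27.2 FPKM and then 25.1 to 29.2 FPKM, with 4 tested and none called. Markers of other lists moved in NB4 as well, in the test with the replicate block alone. CD3D was at a mean of 16.7 FPKM in control and 27.7 FPKM with OGP46 (0.72, adjusted p = 0.0720, with the block 2.2e-04), and KRT8 was at 0.420 and 0.680 FPKM (0.58, with the block 0.0353). The primary granule protease genes PRTN3 (-1.36, adjusted p = 0.155, with the block 1.4e-05) and ELANE (-2.17, adjusted p = 0.192, with the block 0.00234) were called lower with the block, and so was CD34 (-1.42, with the block 0.0361). ELANE and CD34 were highest in NB4 control sample 3, which held traces of Kasumi-1, at 14.5 and 1.31 FPKM. In a bulk sample more cells of a type and more RNA per cell cannot be told apart, and the part of these markers in the oxidase values was not tested.

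The genes whose pattern was most like that of each subunit were found by Pearson's r of log2(FPKM + 0.1) over the 12 samples, after the mean of each cell line was taken off, among 9942 genes. This is a description, as the 12 samples share lines and treatment. For CYBB they were S100A10 (0.96), OLIG1 (0.95) and MMP9 (0.93), and S100A10 was also first without taking off the line means. Within Kasumi-1, CYBB was highest in control sample 2 (0.982 FPKM), the sample with traces of NB4. Genes high in NB4 can share that peak, and its part in the r of CYBB was not tested. For NCF1 they were PGD (0.96), an enzyme that makes NADPH in the pentose phosphate pathway, DBNL (0.95) and NDST2 (0.94). NCF4 came with APOBR (0.96), SH3PXD2B (0.96) and SLC35A2 (0.96), of which SH3PXD2B encodes a relative of p47phox. RAC2 came with GBA2 (0.97), CAPNS1 (0.97) and SCAF1 (0.96), and CYBA with GPS1 (0.94), GIPC1 (0.92) and REXO2 (0.91).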

How the data were processed

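mRNA was sequenced in 12 samples, and the labels give line, treatment and a replicate number from 1 to 3. Poly(A) RNA was selected with oligo(dT) and a stranded kit was used. The authors deposited 1 FPKM value per gene symbol and sample, and their processing notes name Trimmomatic, HISAT2, Cufflinks, HTSeq and hg38. Which tool made the FPKM, the annotation and the strand setting are not given in the sources used here. Read depth is unknown, so precision rests on 3 samples a group. The 27 symbols turned into dates were left out.

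From the FPKM, log2(FPKM + 0.1) was fitted with limma 3.58.1 in R 4.3.3, with a mean-variance trend, over the genes whose mean reached 0.1 FPKM. P-values were adjusted over all genes tested. A fold change on this scale understates that of low genes. The study describes its mRNA-seq as representative of independent experiments, but the labels do not tie the samples to cultures, so p-values measure the spread between these samples, whatever its source.

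The samples of the same number were checked for shared deviations across genes. Over all genes tested, same-numbered control and OGP46 samples correlated at 0.20 to 0.62 in NB4 and 0.16 to 0.40 in Kasumi-1, each over 0.1. The highest correlation between different numbers was 0.22 in NB4, above that of NB4 samples 3 (0.20), and 0.10 in Kasumi-1. Where genes averaged 5 FPKM or more, same-numbered samples correlated at 0.44 to 0.85 in NB4, against at most 0.29 between different numbers. In Kasumi-1 this was 0.42 to 0.62 against at most 0.08. The pairing of NB4 samples 3 is thus unclear over all genes, and the replicate block is given where it changes a call. Between the lines the same-numbered correlation over all genes was -0.05 to 0.02. The genes and lists were chosen with earlier results of these data known. Named genes are the 5 subunits, the called genes and the 3 largest changes of the lists (in part), the NOX genes and the 3 genes most like each subunit. The genes of the other line were chosen after seeing values, as those with at least 10 FPKM there and at most 0.02 FPKM in at least 3 of the other 5 samples of their own line. Results on certain genes of the lists are not reported here. The ratio of the CYBB means without Kasumi-1 control sample 2 was added after seeing the data. Promoters came from RefSeq on GRCh38.p14, and gene positions and transcripts from GENCODE on GRCh38.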

Additional observations from a re-analysis of the deposited data

Results flagged for a closer look

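The change of RAC2 with OGP46 differed between the lines in the test of the interaction with the replicate block. The log2 fold change was larger in NB4 than in Kasumi-1 by 0.41 (SE 0.088, adjusted p = 0.04997), and in NB4 RAC2 was higher with OGP46 in 3 of 3 pairs and in Kasumi-1 in 2 of 3. Without the block the adjusted p was 0.176, and over the alternatives it was 0.04997 to 0.541.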

How the results depend on the processing

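Of the 5 subunits, 1 was called in NB4. None was called without a filter on low values, with TPM scaling, median centring, quantile normalization or no trend, 2 were called at a minimum of 1 FPKM or in a joint model, and 3 with the replicate block, and leaving out 1 sample gave 0 to 3. Over all genes in NB4, 183 were called. This count was 117 at a pseudocount of 1, 4 without a filter or without the trend, 0 under TPM scaling, median centring or quantile normalization and 480 in the joint model. It was 730 with the replicate block, 391 with the block and median centring and 450 with the block and TPM scaling, and leaving out 1 sample gave 0 to 396. In Kasumi-1 the count of 4 became 2 at a pseudocount of 1, 24 at a minimum of 1 FPKM, 18 under TPM scaling or median centring, 11 under quantile normalization and 0 without a filter, without the trend or in the joint model. It was 73 with the replicate block, 93 with the block and median centring and 99 with the block and TPM scaling, with 1 subunit called in each of these, and leaving out 1 sample gave 0 to 11. The interaction had 0 genes, 14 at a pseudocount of 1, 237 with the replicate block and 1 subunit, 144 with the block and median centring, 129 with the block and TPM scaling and 0 to 1 without 1 sample. The causes of these changes were not tested.

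Signs turned for values near 0. CYBA in NB4 was -0.0363 under median centring, with or without the block. In Kasumi-1, CYBA was 0.0081 under TPM scaling, with or without the block, 0.0038 under quantile normalization and -0.0575 to 0.0446 without 1 sample, RAC2 was -0.0529 under median centring, with or without the block, and -0.0383 to 0.0965 without 1 sample, and CYBB was -0.59 to 0.24 without 1 sample. Median centring moved the median of all genes in NB4 from 0.18 to -0.04. At a minimum of 1 FPKM, CYBB and NCF1 could not be tested in Kasumi-1. Between the control groups of the 2 lines, all 5 subunits kept their direction and their call, which needs both thresholds, in each alternative. The adjusted p alone crossed 0.05 for CYBA (0.00434 to 0.304, and 0.00227 to 0.0894 without 1 sample) and for RAC2 (3.9e-04 to 0.165, and 0.00932 to 0.285 without 1 sample). There the replicate block, where same-numbered samples shared only a number, gave 2792 genes higher and 3674 lower in place of 2790 and 3659.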
